A study of Homo sapiens with 21 samples.

Results

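The effect of GO-203 on BT-549 mammospheres was set against the effect of MYC silencing, gene by gene, in 12 of the 21 libraries of the series. All 12 belonged to 4 groups of 3 cultures each, and no library served in both effects. BT-549 is an established line of triple-negative breast cancer (TNBC), and its 3D cells grow as mammospheres that float in serum-free medium and were passaged serially. The 3D control cells were untransduced spheres of passage 6 for which the labels name no agent, and the 3D GO-203 cells were spheres of the same passage treated with 0.75 µmol/L GO-203. The other 6 cultures were spheres of passage 8 from the tet-MYCshRNA line, which carries a single puromycin-selected hairpin against MYC that doxycycline (DOX) switches on, and they received 0.1% DMSO as vehicle or 500 ng/ml DOX. The GO-203 effect was the log2 change from 3D control to 3D GO-203, the MYC silencing effect was the log2 change from vehicle to DOX, and the difference was the first minus the second. A positive difference therefore marked a gene whose level moved further upwards, or less far downwards, with the peptide than with the hairpin. Passage, transduction and vehicle also differed between the 2 effects, and the labels give no length of exposure to GO-203 or to DOX in these spheres, so the sizes of the effects cannot be taken as matched for dose or time. No DOX-treated line without a hairpin was among the 12 libraries, so silencing of MYC and exposure to DOX cannot be told apart.

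GO-203 is a cell-penetrating peptide that binds the CQC motif in the tail of MUC1-C, blocks the formation of MUC1-C dimers and acts on protein that is already made. MYC is a transcription factor that pairs with MAX, binds E-boxes and drives genes for ribosome assembly, nucleotide synthesis, glycolysis and cell division. MUC1-C can bind MYC in the nucleus, so the comparison asks which genes and functions a block of MUC1-C changed in the same way as a lower MYC level, and which it did not.

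The 12 libraries held 38026597 to 99751717 counts each, and 21076 of 42339 listed genes had enough counts to be tested. Vimentin, CD44, EGFR, AXL, ZEB1 and caveolin-1, which mark mesenchymal-like TNBC cells, were present in every library, whereas ESR1 stayed at or below 1.45 CPM (a count scaled to a common library size) and PGR, EPCAM and CDH1 at or below 0.121 CPM. Of 18 markers of other cell types, 7 passed the filter on low counts, and CDH5 and HBB were at 0 in all 12 libraries. Their summed level was 9.56 to 10.4 CPM in 3D control, 11.4 to 12.8 CPM with GO-203, 10.8 to 11.8 CPM with vehicle and 14.7 to 15.02 CPM with DOX, most of it PECAM1, and its part in the results was not tested. The first DOX-treated library of the tet-MYCshRNA line stood apart: its chi-square per degree of freedom was 52.8 against replicate 2 and 36.3 against replicate 3, while those replicates gave 19.5 between them and the other groups gave 8.47 to 21.04. The main counts over all genes are given with and without this library, and list counts that moved strongly with their range over single libraries left out.

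MYC transcripts fell on DOX but not with GO-203, while MUC1 transcripts rose in both settings. MYC (chr8:127735434-127742951, GRCh38) had 579.6, 547 and 585 CPM in the 3 control libraries and 547, 547 and 588 CPM with GO-203, which overlapped (log2 -0.03 ± 0.07, SE, adjusted p = 0.875). In the tet-MYCshRNA line it had 438, 416 and 384 CPM with vehicle and 243, 277 and 296 CPM with DOX (log2 -0.60 ± 0.07, adjusted p = 9.66e-07). All 3 DOX libraries were below all 3 vehicle libraries, and the silencing left most of the MYC message in place. The difference between the effects was 0.57 ± 0.10, adjusted p = 1.56e-04. MUC1 (chr1:155185824-155192916), the target of the peptide, had 214, 219 and 177 CPM in control and 253, 269 and 239 CPM with GO-203 (log2 0.32 ± 0.10, adjusted p = 0.0494). On MYC silencing it went from 66.3, 66.8 and 72.9 CPM to 139, 193 and 167 CPM (log2 1.27 ± 0.10, adjusted p = 8.78e-09), a larger rise than with the peptide (difference -0.95 ± 0.14, adjusted p = 3.97e-05). Since GO-203 acts on the protein, the MUC1 message does not measure its action. In the tet-MUC1shRNA line, which loses MUC1 on DOX, the log2 change was -2.08 for MUC1 and 0.22 for MYC.

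The peptide moved fewer genes than the hairpin and moved them less far, and most genes that both changed went the same way. A gene was called at an adjusted p below 0.1 and called large where its log2 value also exceeded 1.5 in size, the thresholds used throughout (edgeR's quasi-likelihood test with Benjamini-Hochberg adjustment over all tested genes). GO-203 called 3129 genes, with 1437 higher (6.82% of those tested) and 1692 lower (8.03%). MYC silencing called 12121 genes, with 6403 higher (30.4%) and 5718 lower (27.1%). The difference itself was called for 8966 genes, positive for 4163 (19.8%) and negative for 4803 (22.8%). Large calls showed the gap in size: 108 higher (0.512%) and 77 lower (0.365%) with GO-203, against 1565 higher (7.43%) and 747 lower (3.54%) on MYC silencing. Most large calls with GO-203 were genes with low counts. A mean normalized count of at least 100 was reached by 7 of the 108 higher and 25 of the 77 lower genes. Of the differences, 615 (2.92%) were large and positive and 1142 (5.42%) large and negative.

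Both effects called 2603 genes, and 2181 of them (83.8%) moved in the same direction. Genes higher in both numbered 1052, which is 73.2% of the genes higher with GO-203 and 16.4% of those higher on MYC silencing. Genes lower in both numbered 1129, which is 66.7% and 19.7% of the respective lists. The shared genes differed in how far they moved. The median log2 effect of the shared higher genes was 0.46 with GO-203 and 1.06 on MYC silencing, and that of the shared lower genes was -0.35 and -0.77. The difference was called for 681 of the shared higher genes, and MYC silencing was the larger effect in 659 of them. It was called for 700 of the shared lower genes, and MYC silencing was the larger in 661. The effects were closely matched, with the 95% interval of the difference inside a 1.5-fold change either way, for 276 shared higher and 465 shared lower genes. Of the large calls with GO-203, 56 of 108 higher and 35 of 77 lower genes were also called the same way on MYC silencing.

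A further 422 genes were called in opposite directions, 276 of them lower with GO-203 and higher on MYC silencing and 146 the reverse, and the difference was called for all 422. GO-203 changed 133 genes upwards and 177 downwards that MYC silencing did not, where the gene was not called on MYC silencing and the difference was called in the direction of the peptide. The mirror class held 3476 genes higher and 3039 lower on MYC silencing. Over the 12243 genes with a mean normalized count of at least 100, the effects correlated across genes with Pearson's r = 0.44 and Spearman's rho = 0.42, and their SDs were 0.298 with GO-203 and 0.859 on MYC silencing. Genes are not independent replicates, and these coefficients describe the scatter only. Without the DOX library that stood apart, GO-203 called 4386 genes and MYC silencing 12180, the difference was called for 9590, and the shared classes held 1108 higher and 1662 lower genes, the opposite class 723, the GO-203-only class 497 and the MYC-only class 6280. Of the genes in the main classes, 94.8% of the shared higher, 98.1% of the shared lower and 94.2% to 95.2% of the opposite genes kept their class, as did 77.4% to 80.8% of the GO-203-only genes and 83.3% to 84.6% of the MYC-only genes. Without 3D control replicate 1, GO-203 called 1865 genes, the shared classes held 594 and 769, the opposite class 229 and the GO-203-only class 195. The GO-203 effect holds no DOX library, so omitting one changes its calls only through the filter, scaling and spread estimated over all groups. With each effect fitted on its own 6 libraries, GO-203 called 4452 genes and MYC silencing 11665. The shared classes then held 1357 higher and 1503 lower genes.

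**Figure D1:**
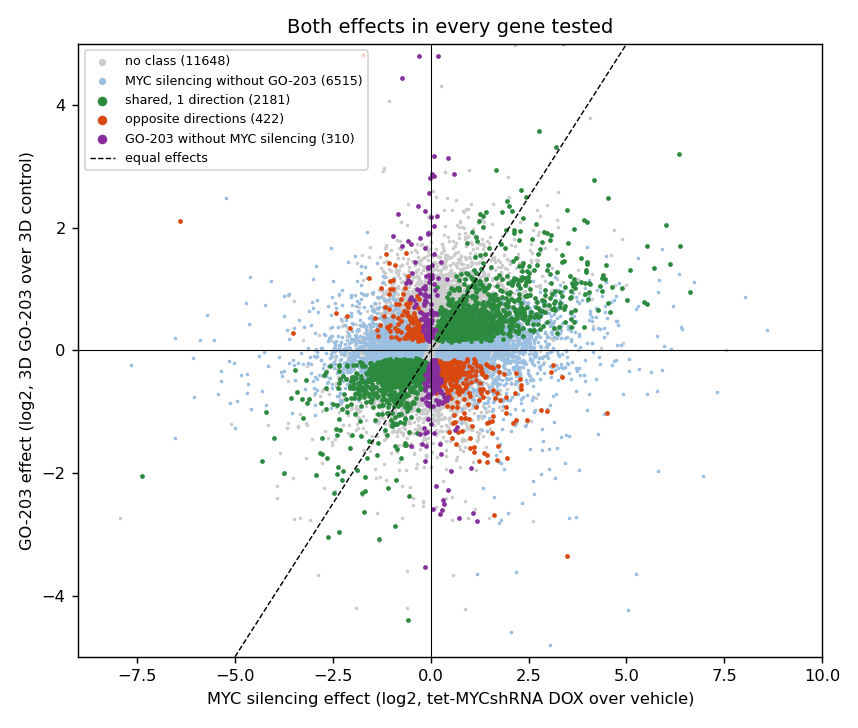
Log2 effect of GO-203 (vertical axis) against log2 effect of MYC silencing (horizontal axis), each point 1 of 21076 tested genes, coloured by class; 10 genes lie outside the axes and the line marks equal effects. Shared genes fill the lower left and upper right, and most lie between the line and the horizontal axis, because the MYC silencing effect was larger for 659 of the 681 shared higher and 661 of the 700 shared lower genes whose difference was called.

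Among genes with a mean normalized count of at least 100, the shared genes that moved furthest in both settings included keratins and a microtubule-associated protein upwards, and receptors and transcription factors downwards. Shared genes of a class or list were ranked throughout by the smaller of both effects. KRT5, a keratin of basal epithelial cells, had 25.4, 21.9 and 24.3 CPM in control and 96.3, 99.3 and 88.5 CPM with GO-203 (log2 1.99 ± 0.14, adjusted p = 3.56e-08). It had 6.59, 4.98 and 3.83 CPM with vehicle and 54.5, 72.4 and 70.2 CPM with DOX (log2 3.67 ± 0.15, adjusted p = 1.79e-12). Treated libraries were above untreated ones in both settings, and the rise was larger on MYC silencing (difference -1.68 ± 0.20, adjusted p = 2.64e-06). KRT6A, a keratin of stratified and injured epithelium, rose by 2.78 with GO-203 and 4.18 on MYC silencing on the log2 scale, from a low level of 1.07 and 0.0799 CPM. MAP2, a microtubule-associated protein of neurons, rose by 1.57 and 2.74, and MMP28, a secreted metalloproteinase, by 1.44 and 3.36. Groups did not overlap in either setting for any of these genes. DOX in the tet-MUC1shRNA line also raised KRT6A (log2 7.54), KRT5 (3.68) and MAP2 (3.05), though not MMP28 (-0.55), and that line loses MUC1 as well as meeting DOX.

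NTSR1 (chr20:62708836-62762771), the neurotensin receptor, had the largest fall with GO-203 of the shared genes named by rule and fell less far on MYC silencing. It had 72.2, 69.9 and 68.2 CPM in control and 14.2, 13 and 14.4 CPM with GO-203 (log2 -2.33 ± 0.12, adjusted p = 2.19e-09), and 148, 131 and 128 CPM with vehicle and 30.4, 47.5 and 43.3 CPM with DOX (log2 -1.75 ± 0.12, adjusted p = 8.68e-10). No treated library reached an untreated one, and here the fall was larger with the peptide (difference -0.59 ± 0.16, adjusted p = 0.00925). POU2F2, a POU-domain transcription factor, fell by nearly the same amount, from 15.1, 15.3 and 13.8 CPM to 3.58, 3.99 and 3.87 CPM with GO-203 and from 40.8, 43.3 and 44.4 CPM to 10.02, 13.6 and 11.5 CPM with DOX. Its log2 effects were -1.95 ± 0.11 and -1.87 ± 0.10, and the 95% interval of the difference ran from -0.38 to 0.23. The other leading falls were CD93, a surface receptor of endothelial and myeloid cells (log2 -2.11 and -2.27), GFI1, a zinc-finger repressor (-1.75 and -2.65), and SERPINB2, an inhibitor of plasminogen activators (-1.97 and -2.24). These 3 were low in control spheres, at 0.724, 1.6 and 0.469 CPM, and higher in the vehicle-treated tet-MYCshRNA spheres, at 10.2, 10.2 and 15 CPM, and 20% of the length of SERPINB2 overlaps another gene. The genes named from here on beside those that a fixed rule picked are examples chosen after their values were seen.

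**Figure D2:**
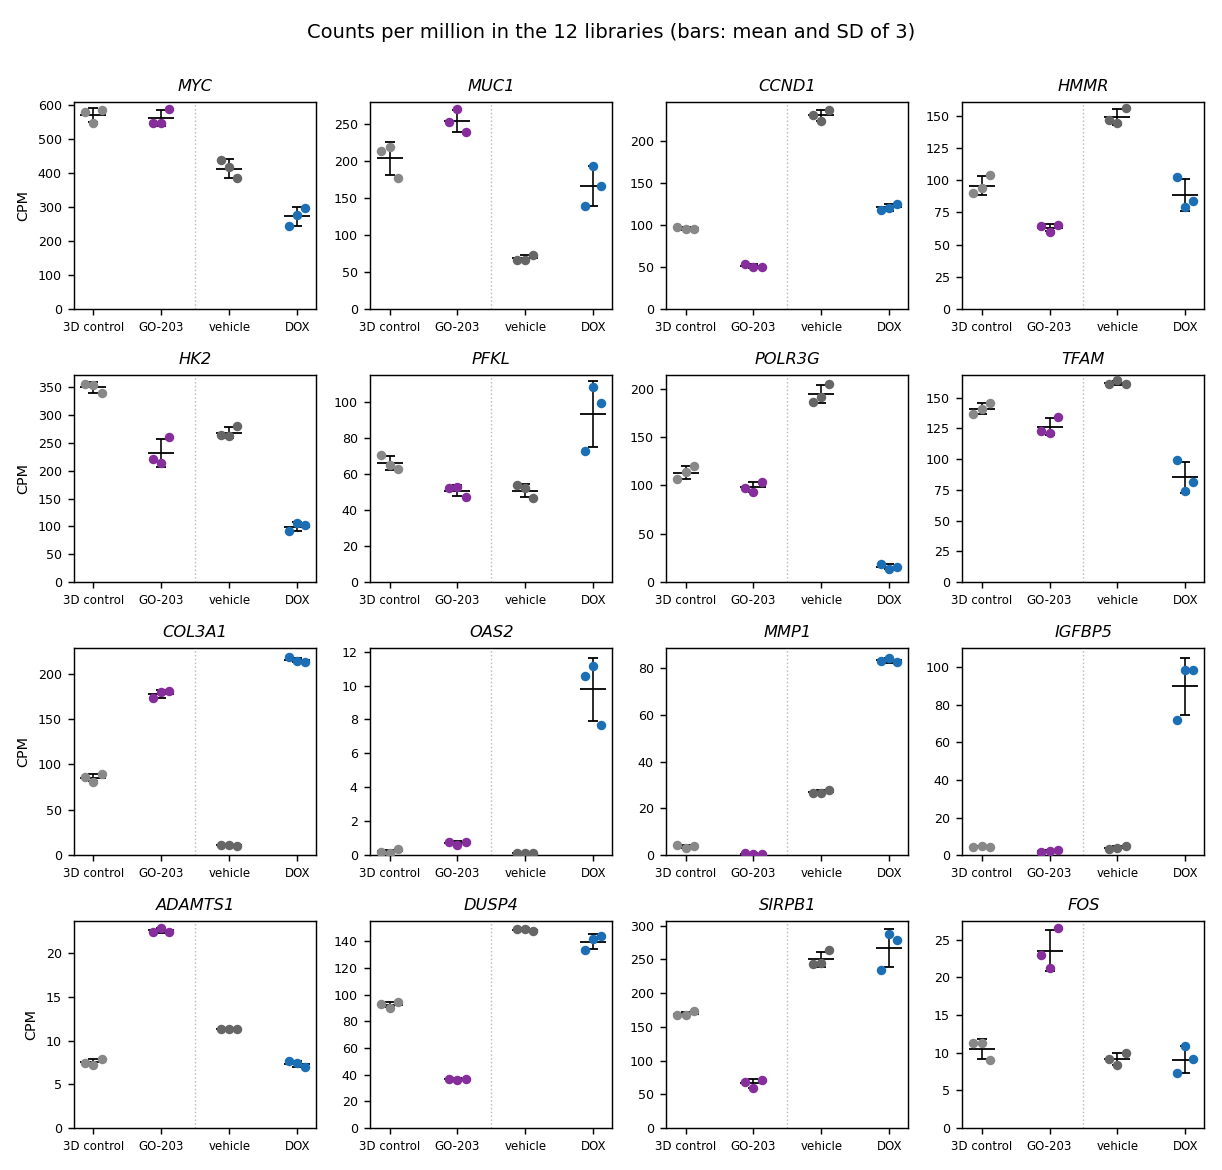
Level in CPM of 16 genes in each of the 12 libraries, by group, with the mean and SD of 3 libraries. CCND1, HMMR and HK2 are lower in all treated libraries of both settings, POLR3G and TFAM drop with DOX, MMP1 and IGFBP5 go down with GO-203 and up with DOX, and DUSP4 and SIRPB1 drop with GO-203 alone.

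Most mitotic genes fell both with the peptide and on MYC silencing. Of 36 mitotic genes, 29 fell with GO-203 and 35 on MYC silencing, against 8.03% and 27.1% of all tested genes, and all 29 were shared. Their median log2 effect was -0.30 with GO-203 and -0.92 on MYC silencing, beside 0.01 and 0.03 over all tested genes, and the difference was called positive for 30, against 19.8% of all tested genes. The same genes thus fell in both settings, and further on MYC silencing. AURKA, the kinase that matures the spindle poles, had 179.7, 171 and 181 CPM in control and 137, 126 and 135 CPM with GO-203 (log2 -0.42 ± 0.05, adjusted p = 5.55e-05), and 265, 263 and 257 CPM with vehicle and 107, 101 and 106 CPM with DOX (log2 -1.32 ± 0.05, adjusted p = 1.92e-12). CCNB1, the mitotic cyclin, fell by 0.30 and by 1.08 on the log2 scale, and MKI67, the antigen used to score proliferating cells, fell by 0.29 and by 0.94. Treated and untreated libraries did not overlap for any of the 3. HMMR, a hyaluronan receptor that also organises the spindle, was the mitotic gene with the largest shared fall and had nearly the same effect in both settings (log2 -0.60 ± 0.08 and -0.75 ± 0.08), with an interval of the difference from -0.10 to 0.40. MYBL2, the transcription factor that opens the mitotic programme, was the furthest apart: it fell on MYC silencing (log2 -1.43 ± 0.11, adjusted p = 3.09e-09) and had 138, 122 and 126 CPM in control and 124, 117 and 108 CPM with GO-203 (adjusted p = 0.441). Leaving out each library in turn gave 24 (without 3D control replicate 3) to 31 (without tet-MYCshRNA DOX replicate 1) mitotic genes lower with GO-203.

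DNA replication genes fell together as well, with 21 of 38 lower with GO-203 and 37 on MYC silencing, beside 8.03% and 27.1% of all tested genes, and no member rose in either setting. Their medians were -0.29 and -0.75, and the number lower with GO-203 was 17 (without 3D GO-203 replicate 3) to 29 (without tet-MYCshRNA DOX replicate 1) as single libraries were left out. UHRF1, which keeps DNA methylation in step with replication, had the largest shared fall by the smaller of both effects (log2 -0.60 ± 0.07 with GO-203 and -1.02 ± 0.07 on MYC silencing, difference adjusted p = 0.00324). RFC3, a subunit of the clamp loader, was the member with the largest called difference (log2 -0.39 ± 0.07 against -1.45 ± 0.07). CDT1 and MCM2, which load and form the replicative helicase, differed less between the settings: the effects were -0.70 and -0.34 for CDT1 (interval of the difference -0.78 to 0.06) and -0.39 and -0.42 for MCM2 (-0.28 to 0.35). The share of counts in replication-dependent histone genes fell from 0.422% to 0.479% in control to 0.308% to 0.344% with GO-203, and from 0.479% to 0.570% with vehicle to 0.160% to 0.205% with DOX. Of 59 such genes, 43 fell with GO-203 and 53 on MYC silencing, with medians of -0.52 and -1.67. These mRNAs mostly lack a poly(A) tail and the libraries were selected for poly(A), so their counts cover part of the histone message.

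Most regulators of the G1 phase called with GO-203 moved the same way on MYC silencing, and others responded to MYC silencing alone. CCND1 (chr11:69641156-69654474), the cyclin that drives cells through G1, fell by closely matched amounts in both. It had 98, 95.5 and 95.1 CPM in control and 53.6, 49.99 and 50.5 CPM with GO-203 (log2 -0.90 ± 0.06, adjusted p = 1.09e-08), and 231, 223 and 237 CPM with vehicle and 117, 121 and 125 CPM with DOX (log2 -0.93 ± 0.06, adjusted p = 1.90e-10). No treated library overlapped an untreated one, and the interval of the difference, -0.14 to 0.19, lay inside a 1.5-fold change. In the tet-MUC1shRNA line DOX moved CCND1 the other way (log2 0.62). CDK6, a kinase partner of CCND1, fell on MYC silencing (log2 -1.32 ± 0.07, adjusted p = 1.02e-10), while its levels with GO-203 (316, 311 and 329 CPM) were close to those in control (321, 362 and 299 CPM, adjusted p = 0.822). CDKN2B, which encodes the CDK4 and CDK6 inhibitor p15, rose in both settings, from 316, 315 and 323 CPM to 551, 528 and 588 CPM with GO-203 and from 59.6, 56.5 and 59.6 CPM to 261, 260.5 and 246 CPM with DOX. All treated libraries were above the untreated ones, and the rise was smaller with the peptide (difference -1.32 ± 0.08, adjusted p = 6.32e-10). CDKN1A, which encodes the CDK inhibitor p21, moved in opposite directions, -0.35 with GO-203 (adjusted p = 0.017) and 0.82 on MYC silencing (adjusted p = 3.48e-07). Over the 14 genes of this list, 4 rose and 2 fell with GO-203, and 7 rose and 4 fell on MYC silencing. Shared rises numbered 4 and shared falls 1, and 1 gene was opposite. Over all tested genes, 6.82% rose and 8.03% fell with GO-203 and 30.4% rose and 27.1% fell on MYC silencing. The share of G1 genes that fell on MYC silencing was near that over all genes. With single libraries left out, the number higher with GO-203 was 1 (without 3D control replicate 1) to 4 (without tet-MYCshRNA DOX replicate 2) and the number lower 2 (without 3D control replicate 1) to 6 (without tet-MYCshRNA DOX replicate 1).

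Genes of cell growth, the best known targets of MYC, fell on MYC silencing in nearly every case and with the peptide in a minority. Of 61 growth genes that MYC is known to activate, 59 fell on MYC silencing and 14 with GO-203, and the difference was called positive for 54. Over all tested genes, 27.1% fell on MYC silencing, 8.03% fell with GO-203 and 19.8% had a positive difference. The median log2 effects were -1.08 and -0.16, and none of the 61 rose in either setting. All 14 that fell with GO-203 also fell on MYC silencing. The number lower with GO-203 was 8 (without 3D control replicate 1) to 28 (without tet-MYCshRNA DOX replicate 1), as single libraries were left out. NPM1, a nucleolar chaperone of ribosome assembly, had 1589, 1586 and 1684 CPM in control and 1408, 1324 and 1414 CPM with GO-203 (log2 -0.23 ± 0.06, adjusted p = 0.0201), and 1587, 1613 and 1599 CPM with vehicle and 775, 646 and 677 CPM with DOX (log2 -1.19 ± 0.06, adjusted p = 2.79e-11). Treated and untreated libraries did not overlap in either setting. NCL, the nucleolin gene, behaved alike (log2 -0.16 and -1.13). ODC1, the rate-limiting enzyme of polyamine synthesis and a classic MYC target, had 277, 259.9 and 300.1 CPM in control and 255, 253 and 254 CPM with GO-203 (adjusted p = 0.21) and fell from 306, 292 and 269 CPM to 116, 111 and 119.9 CPM with DOX (log2 -1.32 ± 0.06, adjusted p = 1.43e-11). SORD, sorbitol dehydrogenase, had the largest called difference of the list (2.01 ± 0.11, adjusted p = 2.07e-10), and SLC19A1, the reduced folate carrier, the largest shared fall (log2 -0.48 and -1.52).

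POLR3G (chr5:90471748-90514557), a subunit of RNA polymerase III, was among the genes with the largest fall on MYC silencing alone. It had 186, 191 and 205 CPM with vehicle and 18.6, 13.8 and 15.4 CPM with DOX (log2 -3.61 ± 0.09, adjusted p = 6.57e-15), against 106, 114 and 119.6 CPM in control and 96.8, 93.5 and 104 CPM with GO-203 (log2 -0.21 ± 0.08, adjusted p = 0.141). The DOX libraries were far below the vehicle libraries, and GO-203 libraries were below control by less than the test could call. Genes of the wider apparatus of protein synthesis also fell more often on MYC silencing than with GO-203, beside 27.1% and 8.03% of all tested genes. Ribosome biogenesis genes fell in 83 of 91 cases on MYC silencing and in 14 with GO-203 (medians -0.75 and -0.06), the second count being 8 (without 3D control replicate 1) to 26 (without tet-MYCshRNA DOX replicate 1). Cytosolic ribosomal protein genes fell in 71 of 80 and in 26 (medians -0.42 and -0.20), and the second count ran from 13 (without 3D control replicate 1) to 52 (without tet-MYCshRNA DOX replicate 1). RPL41, a small protein of the large subunit, fell by similar amounts in both (log2 -0.49 and -0.43, interval of the difference -0.33 to 0.22), whereas RPL28, another, fell with GO-203 alone (log2 -0.43 ± 0.14, adjusted p = 0.0539, against 0.19 ± 0.14 on MYC silencing). Translation factor genes fell in 39 of 45 cases on MYC silencing and 13 with GO-203, and cytosolic aminoacyl-tRNA synthetase genes in 18 and 2 of 22, where the count with GO-203 was near the share over all genes. With single libraries left out, the GO-203 counts were 6 (without 3D control replicate 3) to 17 (without tet-MYCshRNA DOX replicate 1) for translation factors and 1 (without 3D control replicate 1) to 4 (without tet-MYCshRNA DOX replicate 1) for the synthetases. Serine, folate and nucleotide synthesis genes fell in 29 of 32 cases and in 10, the second count being 7 (without 3D control replicate 1) to 17 (without tet-MYCshRNA DOX replicate 1). TYMS, thymidylate synthase, led the shared falls (log2 -0.65 and -1.32), while MTHFD1L, a mitochondrial enzyme of the folate cycle, fell from 79.2, 74.8 and 71.5 CPM to 19.9, 20.2 and 21.5 CPM with DOX (log2 -1.87 ± 0.07, adjusted p = 2.96e-13) and had 62.9, 61.3 and 60.9 CPM in control and 64.4, 61.3 and 58.8 CPM with GO-203 (log2 -0.01 ± 0.06). Without the first DOX library, GO-203 lowered 28 of the MYC-activated growth genes, 26 ribosome biogenesis genes and 52 ribosomal protein genes.

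The promoters of 3 genes with the E-box that MYC binds, CACGTG, are shown because the genes stand for the 3 outcomes: a shared fall that was larger on MYC silencing (PRDX3), a shared fall of closely matched size (MLX) and a fall on MYC silencing alone (MTHFD1L). PRDX3 is a mitochondrial peroxidase (log2 -0.22 with GO-203 and -1.01 on MYC silencing), and MLX is a partner of MYC-related transcription factors (log2 -0.29 and -0.33). Each line gives 80 bases, 5′ to 3′ on the strand of the gene, from RefSeq (GRCh38.p14), with the E-box in capitals. They lie at chr10:119178927-119179006 on the minus strand, chr17:42567013-42567092 on the plus strand and chr6:150866295-150866374 on the plus strand, and the E-box begins at -157, -50 and -154 relative to the RefSeq start in the promoter table. That start can differ from the gene start of the GENCODE positions used elsewhere, as it does for MLX and MTHFD1L.
PRDX3: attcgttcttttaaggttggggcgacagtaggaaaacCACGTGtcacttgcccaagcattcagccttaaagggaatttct
MLX: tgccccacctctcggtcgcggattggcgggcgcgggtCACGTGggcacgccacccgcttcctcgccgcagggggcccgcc
MTHFD1L: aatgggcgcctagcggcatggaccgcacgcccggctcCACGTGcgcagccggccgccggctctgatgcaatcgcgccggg
The letters CACGTG read the same on both strands and were searched from 250 bases before to 50 bases after each start. They occurred in 7.43% of all 27305 promoters in the table and in 9.71% of the 11043 found for tested protein-coding genes. The share was 10.6% of 870 for shared lower genes, 11.3% of 1907 for genes lower on MYC silencing alone, 12.4% of 129 for genes lower with GO-203 alone and 8.37% of 717 for shared higher genes. These shares lay close together, and a match describes the letters in the window and no binding.

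Glycolytic genes fell in both settings, and some were called in only 1 of them. Of 23 genes of glucose uptake and glycolysis, 14 fell with GO-203 and none rose, while 15 fell and 2 rose on MYC silencing (medians -0.33 and -0.69), where over all tested genes 8.03% fell with GO-203 and 27.1% fell and 30.4% rose on MYC silencing. Shared falls numbered 9, and the difference was called positive for 12 and negative for 6, beside 19.8% and 22.8% of all tested genes. The negative count lay near the share over all genes, and the number higher on MYC silencing was 4 without tet-MYCshRNA DOX replicate 1. Several of these genes are ones the study itself picked, so their direction is not independent of these libraries. HK2, hexokinase 2, the first enzyme of the pathway, had 356, 355 and 339 CPM in control and 221, 214 and 261 CPM with GO-203 (log2 -0.59 ± 0.07, adjusted p = 3.46e-05), and 264, 263 and 279.7 CPM with vehicle and 91, 107 and 102 CPM with DOX (log2 -1.43 ± 0.07, adjusted p = 3.87e-11). Treated libraries were below untreated ones in both settings, and the fall was larger on MYC silencing (difference 0.84 ± 0.10, adjusted p = 5.90e-06). SLC2A1, the glucose transporter GLUT1, followed with log2 effects of -0.46 ± 0.10 and -1.002 ± 0.10, and PGK1, phosphoglycerate kinase, with -0.46 ± 0.06 and -0.93 ± 0.06. SLC2A3, the transporter GLUT3, and SLC16A1, a lactate and pyruvate carrier, fell on MYC silencing alone (log2 -1.65 and -1.21, against -0.16 and -0.10 with GO-203).

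Other steps of the pathway responded to the peptide and not, or in the opposite way, to MYC silencing. GAPDH, which makes NADH in glycolysis, had 4077, 3723 and 3812 CPM in control and 3029, 2886 and 2941 CPM with GO-203 (log2 -0.39 ± 0.08, adjusted p = 0.00283), and 3799.99, 3502 and 3585 CPM with vehicle and 2779, 3537 and 3681 CPM with DOX (log2 -0.12 ± 0.08, adjusted p = 0.201). The GO-203 libraries were all below control and the DOX and vehicle libraries overlapped, with a difference of -0.27 ± 0.11, adjusted p = 0.0672. PKM, pyruvate kinase, likewise fell with GO-203 alone (log2 -0.29 ± 0.08, adjusted p = 0.0351, against 0.02 ± 0.08), as did SLC16A3, the lactate exporter MCT4 (log2 -0.55 ± 0.16, adjusted p = 0.0384, against 0.14 ± 0.16). PFKL, the liver-type phosphofructokinase, moved in opposite directions. It had 70.4, 65 and 62.9 CPM in control and 51.9, 52.6 and 47.1 CPM with GO-203 (log2 -0.39 ± 0.11, adjusted p = 0.0312), and 53.5, 52.2 and 46.3 CPM with vehicle and 72.6, 108 and 99 CPM with DOX (log2 0.88 ± 0.11, adjusted p = 2.44e-06). GO-203 libraries were all below control and DOX libraries all above vehicle, and the difference was -1.27 ± 0.16, adjusted p = 5.15e-06. Its sister enzymes PFKM and PFKP fell in both settings (log2 -0.33 and -0.72 for PFKM, -0.33 and -0.87 for PFKP). ENO2, the neuronal enolase, was the other opposite gene (log2 -0.44 ± 0.07, adjusted p = 5.09e-04, against 0.36 ± 0.07, adjusted p = 3.71e-04). DOX in the tet-MUC1shRNA line gave a median of -1.06 over the list. ALDOA and LDHB overlap other genes over 42.8% and 33.4% of their length and are left as uncertain. The number of glycolytic genes lower with GO-203 was 11 (without 3D control replicate 1) to 19 (without tet-MYCshRNA DOX replicate 1), as single libraries were left out.

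Hypoxia targets outside glycolysis fell in similar numbers with the peptide and on MYC silencing. Of 26 such genes, 15 fell and 1 rose with GO-203, and 13 fell and 6 rose on MYC silencing (medians -0.26 and -0.12). The shares over all tested genes differed more, at 8.03% lower and 6.82% higher with GO-203 and 27.1% lower and 30.4% higher on MYC silencing. The number of these genes that rose on MYC silencing lay near the share over all genes. With single libraries left out, it was 4 (without 3D control replicate 1) to 8 (without tet-MYCshRNA DOX replicate 1). The most abundant shared fall was in STC1, the secreted hormone stanniocalcin-1, with 839, 836 and 881 CPM in control and 403, 371 and 465 CPM with GO-203, and 1534, 1563 and 1689 CPM with vehicle and 378, 465 and 408 CPM with DOX (log2 -1.05 ± 0.08 and -1.94 ± 0.08). Every treated library was below every untreated one. ANGPTL4, a lipase inhibitor, and NDRG1, a stress-response gene, fell by similar amounts in both settings (log2 -1.02 and -1.11, and -0.66 and -0.48), with intervals of the difference from -0.37 to 0.55 and from -0.46 to 0.12. VEGFA, the angiogenic growth factor, fell with GO-203 alone, from 334, 328 and 324 CPM to 252, 254 and 284 CPM (log2 -0.32 ± 0.06, adjusted p = 0.00132), with 325, 342 and 349 CPM and 315, 342 and 335 CPM in the tet-MYCshRNA line. PGF, the related placental growth factor, was also lower with GO-203 alone (log2 -1.53 ± 0.21, adjusted p = 1.04e-04, against 0.24 ± 0.17). The carbonic anhydrase genes divided: CA9 fell in both settings (log2 -0.67 and -1.65), while CA12 fell with GO-203 and rose on MYC silencing (log2 -0.36 and 0.53).

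**Figure D3:**
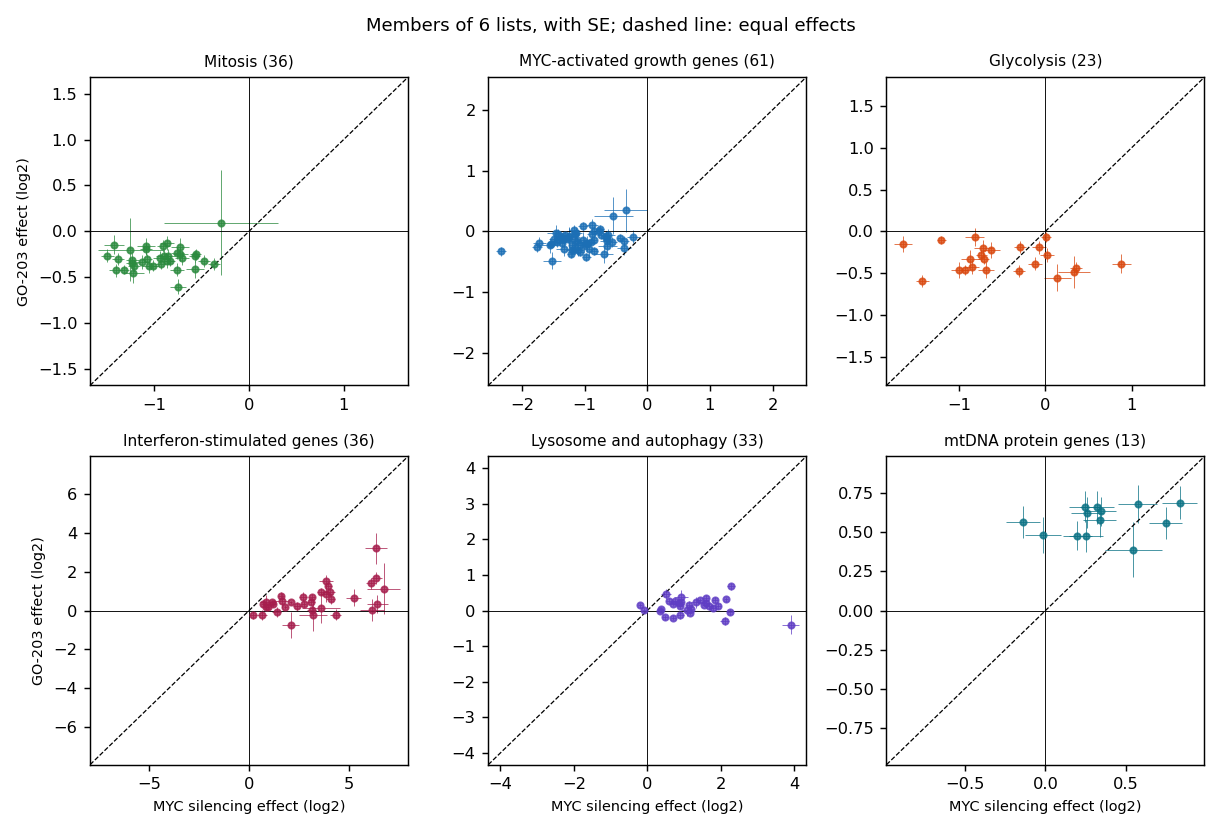
Log2 effect of GO-203 (vertical axis) against log2 effect of MYC silencing (horizontal axis) for the members of 6 gene lists, with SE bars and a dashed line of equal effects. Mitotic and growth genes lie to the left of 0 and above the line, lysosomal and interferon-stimulated genes spread to the right, mostly below the line, with GO-203 effects of -0.40 to 0.68 and -0.77 to 3.2, and mtDNA protein genes rise with GO-203 by 0.39 to 0.69.

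Mitochondrial genes showed a rise of the mtDNA transcripts in both settings. Nuclear mitochondrial genes fell more often on MYC silencing than with GO-203, as did all tested genes (27.1% and 8.03%). Of the 13 protein genes of mtDNA, 12 rose with GO-203 and 11 on MYC silencing, and 10 were shared (medians 0.58 and 0.32). Over all tested genes, 6.82% rose with GO-203 and 30.4% on MYC silencing. The mtDNA share of all counts was 2.31% to 2.72% in control and 3.34% to 4.40% with GO-203, and 3.37% to 4.08% with vehicle and 3.96% to 5.07% with DOX. The median was larger with the peptide, and the difference was called positive for 5 genes, or 3 (without tet-MYCshRNA DOX replicate 2) to 9 (without tet-MYCshRNA DOX replicate 3) with single libraries left out, beside 19.8% of all tested genes, which the lowest of these counts is near. MT-CYB, the cytochrome b gene, rose in both settings, from 1903, 2039 and 1756 CPM to 2824, 3595 and 2777 CPM with GO-203 (log2 0.69 ± 0.11, adjusted p = 3.16e-04) and from 2549, 2882 and 3102 CPM to 4997, 4345 and 5849 CPM with DOX (log2 0.83 ± 0.11, adjusted p = 3.40e-06). MT-ND2, a subunit of Complex I, rose with GO-203 alone, from 1897, 2078 and 1788 CPM to 2644, 3286 and 2598 CPM (log2 0.57 ± 0.11, adjusted p = 0.00163), and had 2877, 3059 and 3477 CPM with vehicle and 2791, 2437 and 3321 CPM with DOX (log2 -0.14 ± 0.10). GO-203 libraries were above control for both genes, and only MT-CYB was also above vehicle in every DOX library. MT-ND1, its neighbour on mtDNA, gave the same pattern (log2 0.48 ± 0.11, adjusted p = 0.0105, against -0.02 ± 0.11). The count on MYC silencing rested on single libraries, at 4 (without tet-MYCshRNA DOX replicate 3) to 11 (without 3D GO-203 replicate 2), while with GO-203 it was 12 or 13 throughout. The libraries were selected for poly(A), and the share of mtDNA counts can also move with RNA quality or handling, whose part was not tested.

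The nuclear factors that copy and transcribe mtDNA did not follow this rise. TFAM, which packages and activates mtDNA, had 137, 141 and 145 CPM in control and 123, 121 and 134 CPM with GO-203 (log2 -0.16 ± 0.08, adjusted p = 0.259), and fell from 161, 164 and 161 CPM to 99.3, 74.3 and 81.7 CPM with DOX (log2 -0.93 ± 0.08, adjusted p = 3.46e-08). GO-203 libraries were below control by less than the test could call, DOX libraries were all below vehicle, and the difference was 0.77 ± 0.12, adjusted p = 4.58e-05. TFB2M, the initiation factor of the mitochondrial polymerase, TWNK, the mtDNA helicase, and MTERF3, a repressor of mtDNA transcription, fell on MYC silencing alone, by 1.13, 1.48 and 0.78 on the log2 scale. TFB1M, a methyltransferase of the mitochondrial ribosome, fell in both (log2 -0.41 and -1.4), as did POLG, the mtDNA polymerase, with nearly equal effects (-0.29 and -0.27). Of the 20 factors, 18 fell on MYC silencing and 4 with GO-203, the second count being 3 (without 3D control replicate 1) to 7 (without tet-MYCshRNA DOX replicate 1). Nuclear respiratory chain genes fell in 50 of 77 cases on MYC silencing and in 14 with GO-203 (medians -0.39 and -0.11), the second count being 2 (without 3D control replicate 1) to 25 (without tet-MYCshRNA DOX replicate 1), and over all tested genes 27.1% and 8.03% fell. CYCS, cytochrome c, had the largest called difference (log2 0.24 ± 0.10 with GO-203, against -1.36 ± 0.10, adjusted p = 3.95e-09), and NDUFS6, a subunit of Complex I, the largest shared fall (-0.48 and -0.45). Mitochondrial ribosomal protein genes fell in 65 of 77 and in 18, the second count being 10 (without 3D control replicate 1) to 34 (without tet-MYCshRNA DOX replicate 1). The shared falls were led by MRPS34 (-0.57 and -1.1), while MRPL33, which overlaps another gene over 21.1% of its length, rose with GO-203 and fell on MYC silencing (0.42 and -1.03). PDK4, the kinase that shuts off pyruvate entry into the citric acid cycle, rose in both settings, from 601, 615 and 638 CPM to 857, 819 and 885 CPM with GO-203 and from 131, 129.7 and 138 CPM to 1649, 1233 and 1410.1 CPM with DOX (log2 0.47 ± 0.08 and 3.43 ± 0.08).

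Matrix genes rose in both settings, and almost all that rose with the peptide also rose on MYC silencing. Of 38 collagen and matrix genes, 18 rose and none fell with GO-203, and 27 rose and 7 fell on MYC silencing, with 16 rising in both, where 6.82% and 30.4% of all tested genes rose (medians 0.29 and 0.94). COL3A1, the chain of type III collagen, had 86.6, 80.8 and 89 CPM in control and 173, 179 and 181 CPM with GO-203 (log2 1.06 ± 0.06, adjusted p = 2.47e-09), and 11.1, 10.8 and 10.3 CPM with vehicle and 218, 214 and 213 CPM with DOX (log2 4.32 ± 0.07, adjusted p = 1.81e-17). The groups did not overlap in either setting, and the rise was the larger on MYC silencing, from a lower starting level. COL1A1, a chain of type I collagen, rose by closely matched amounts (log2 0.90 ± 0.11 and 0.93 ± 0.11, interval of the difference -0.37 to 0.29), and so did SPARC, a collagen-binding protein (0.67 ± 0.06 and 0.84 ± 0.06, -0.34 to 0.01). FBN1, the microfibril protein fibrillin-1, and VCAN, the proteoglycan versican, rose in both and further on MYC silencing (log2 0.78 and 1.49, and 0.92 and 2.26). COL4A1, a chain of basement membrane collagen, rose with GO-203 alone, from 124, 122 and 118 CPM to 193, 188 and 189 CPM (log2 0.65 ± 0.05, adjusted p = 1.80e-07), and had 112, 112 and 111 CPM with vehicle and 113, 108 and 112 CPM with DOX. LAMB1, a laminin chain, fell on MYC silencing alone (log2 -2.005 ± 0.06, adjusted p = 3.87e-14, against -0.06 ± 0.06). The number of these genes higher with GO-203 was 12 (without 3D GO-203 replicate 1) to 18 (without tet-MYCshRNA vehicle replicate 1), as single libraries were left out.

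Interferon-stimulated and lysosomal genes rose on MYC silencing in nearly every case and with GO-203 in a minority, further on MYC silencing. Of 36 interferon-stimulated genes, 35 rose on MYC silencing and 14 with GO-203, none fell, and the difference was called negative for 33 (medians 3.11 and 0.42). Over all tested genes, 30.4% rose on MYC silencing, 6.82% rose with GO-203 and 22.8% had a negative difference. Both counts of rises lay above the share over all genes. OAS2, which makes the activator of RNase L, had 0.106, 0.118 and 0.13 CPM with vehicle and 10.6, 11.1 and 7.65 CPM with DOX (log2 6.36 ± 0.28, adjusted p = 3.68e-12), and 0.204, 0.116 and 0.332 CPM in control and 0.801, 0.621 and 0.765 CPM with GO-203 (log2 1.7 ± 0.31, adjusted p = 0.00132). Treated libraries were above untreated ones in both settings, but with GO-203 the level stayed below 1 CPM. MX1, an antiviral GTPase, and IFIT1, which binds viral RNA, were also raised in both (log2 1.41 and 6.12, and 1.28 and 3.97), with levels of 0.993 and 3.98 CPM with GO-203 and 15.9 and 13 CPM with DOX. OAS1 rose on MYC silencing (log2 6.14 ± 0.60, adjusted p = 1.15e-07) to 1.51, 1.64 and 0.803 CPM, and at 0.123, 0.0772 and 0.121 CPM in control and 0.134, 0.0518 and 0.133 CPM with GO-203 its level was too low to tell whether the peptide changed it. In the tet-MUC1shRNA line, DOX gave a median of -0.51 over this list. Expression of a hairpin differed between vehicle and DOX in the tet-MYCshRNA line only among the 12 libraries, so its part and that of MYC loss cannot be told apart. MHC class I presentation genes rose in 14 of 16 cases on MYC silencing and in 2 with GO-203. ERAP1, the peptidase that trims antigenic peptides, rose in both (log2 0.36 and 1.51), whereas B2M, the invariant chain of the complex, rose on MYC silencing alone (0.89, against 0.08).

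Lysosome and autophagy genes rose in 31 of 33 cases on MYC silencing, and in 12 with GO-203, where 1 fell (medians 1.15 and 0.14), and both counts of rises lay above the 30.4% and 6.82% over all tested genes. The difference was called negative for 29 of them, against 22.8% of all tested genes. TPP1, a lysosomal peptidase, had 103, 106 and 109.8 CPM with vehicle and 450.2, 457 and 505 CPM with DOX (log2 2.15 ± 0.06, adjusted p = 3.37e-14), and 139, 151 and 154 CPM in control and 189, 175 and 188 CPM with GO-203 (log2 0.31 ± 0.06, adjusted p = 0.00247). The groups did not overlap in either setting, and the rise was far smaller with the peptide. GABARAPL1, a protein of autophagosome membranes, had the largest shared rise (log2 0.68 and 2.28), and LAMP2, a lysosomal membrane protein, rose by 0.29 and 1.45. CTSD, the aspartic protease cathepsin D, and SQSTM1, the autophagy receptor p62, rose on MYC silencing alone (log2 2.11 and 1.69, against -0.28 and 0.11). CTSB, cathepsin B, was the member that fell with GO-203 (log2 -0.20 ± 0.07, adjusted p = 0.0611) and rose on MYC silencing (0.70). The number higher with GO-203 was 4 (without 3D control replicate 1) to 13 (without tet-MYCshRNA DOX replicate 1), as single libraries were left out.

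**Figure D4:**
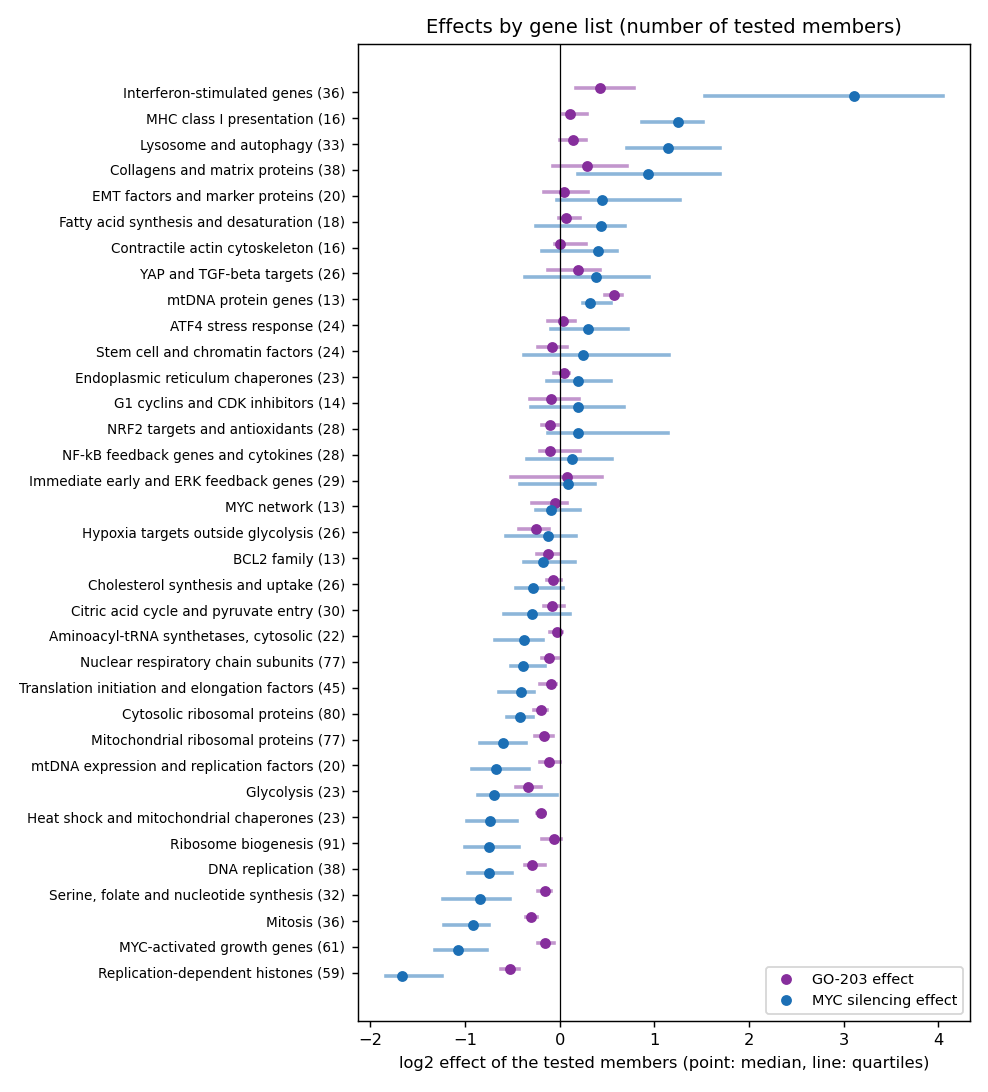
Median log2 effect of each gene list with GO-203 and on MYC silencing, with the quartiles as bars. For most lists the MYC silencing median is further from 0 and in the same direction, as for mitosis (-0.30 and -0.92) and growth genes (-0.16 and -1.08), whereas the mtDNA protein genes (0.58 and 0.32) and the hypoxia targets (-0.26 and -0.12) have the larger median with GO-203. The medians of the stem cell, G1, NRF2 and NF-kB lists lie on opposite sides of 0.

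Genes that GO-203 changed and MYC silencing did not included an inhibitor and a target of the ERK pathway. DUSP4, a phosphatase that dephosphorylates ERK in the nucleus, had 92.9, 90.3 and 94.8 CPM in control and 37, 35.8 and 37.1 CPM with GO-203 (log2 -1.34 ± 0.06, adjusted p = 2.03e-10). It had 149, 149.5 and 148 CPM with vehicle and 133, 142 and 144 CPM with DOX (log2 -0.09 ± 0.05, adjusted p = 0.183). The GO-203 libraries were all below control, the DOX libraries were below vehicle by less than the test could call, and the difference was -1.25 ± 0.08, adjusted p = 1.61e-09. SIRPB1 (chr20:1561385-1620061), a signal regulatory protein of myeloid cells, fell from 167, 168 and 173 CPM to 67.7, 59.2 and 71.8 CPM (log2 -1.35 ± 0.08, adjusted p = 6.06e-09), and had 243, 245 and 263 CPM with vehicle and 235, 288 and 278 CPM with DOX. ETV5, an ETS factor downstream of ERK, fell with GO-203 (log2 -0.59 ± 0.06, adjusted p = 5.43e-06) and not on MYC silencing (0.05 ± 0.06). SPRY4, a feedback inhibitor of the pathway, fell with GO-203 (log2 -0.69 ± 0.06, adjusted p = 1.00e-06) and rose slightly on MYC silencing (0.14 ± 0.06, adjusted p = 0.0742). Other feedback genes were shared: DUSP6, the cytoplasmic ERK phosphatase, fell by closely matched amounts in both (log2 -0.58 ± 0.08 and -0.56 ± 0.08, interval of the difference -0.24 to 0.21), and DUSP5 and FOSL1 fell further on MYC silencing (-0.84 and -1.64, and -0.81 and -1.23).

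Several immediate early genes rose with the peptide, some of them with the peptide alone. FOS, a subunit of the AP-1 factor, had 11.3, 11.2 and 8.99 CPM in control and 22.9, 21.2 and 26.5 CPM with GO-203 (log2 1.17 ± 0.14, adjusted p = 1.80e-05), and 9.1, 8.39 and 9.96 CPM with vehicle and 7.28, 10.8 and 9.13 CPM with DOX (log2 -0.01 ± 0.14). GO-203 libraries were all above control, and vehicle and DOX libraries overlapped. EGR3, a related early-response factor, also rose with GO-203 alone (log2 1.67 ± 0.32, adjusted p = 0.00189) but from 0.35 CPM, while EGR1 rose in both settings (log2 0.74 and 0.49, interval of the difference -0.01 to 0.51). FOSB, another AP-1 subunit, moved in opposite directions (log2 0.56 ± 0.15, adjusted p = 0.0215, against -0.98 ± 0.15, adjusted p = 2.44e-05). Over the 29 immediate early and ERK feedback genes, 10 rose and 10 fell with GO-203, 14 rose and 9 fell on MYC silencing, and the difference was called for 11 upwards and 8 downwards. Over all tested genes, 6.82% rose and 8.03% fell with GO-203, 30.4% rose and 27.1% fell on MYC silencing, and 19.8% and 22.8% had a positive and a negative difference. The falls on MYC silencing and the negative differences lay near the shares over all genes. The number higher on MYC silencing was 9 without DOX replicate 3, and the number with a positive difference 7 without GO-203 replicate 1. ID1, an inhibitor of bHLH factors, rose with GO-203 alone (log2 1.01 ± 0.16, adjusted p = 3.28e-04, against -0.14 ± 0.16), as did RPS6KL1, a kinase-like gene (1.08), RGS5, a regulator of G-protein signalling and a pericyte marker (1.01), and NPIPB3, a member of a multicopy gene family whose reads are hard to place (0.99). Among the falls with GO-203 alone, MAST4, a kinase, was low in 3D control spheres (1.31, 0.887 and 0.996 CPM) and abundant in vehicle-treated tet-MYCshRNA spheres (44.5, 44.9 and 49.1 CPM), so its effects (log2 -1.81 and -0.13) start from different levels. SLC1A6, a glutamate transporter, fell with GO-203 (log2 -1.55 ± 0.17, adjusted p = 6.92e-06) and had -0.11 ± 0.15 on MYC silencing, and DOX in the tet-MUC1shRNA line gave -4.98.

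The genes that moved furthest in opposite directions included secreted enzymes and a growth factor binding protein. MMP1 (chr11:102789401-102798160), the interstitial collagenase, had 4.51, 3.14 and 3.88 CPM in control and 0.846, 0.518 and 0.449 CPM with GO-203 (log2 -2.69 ± 0.18, adjusted p = 1.96e-08). It had 26.6, 26.4 and 28 CPM with vehicle and 83.2, 84.6 and 82.6 CPM with DOX (log2 1.63 ± 0.11, adjusted p = 5.84e-10). The GO-203 libraries were all below control and the DOX libraries all above vehicle, with a difference of -4.32 ± 0.20, adjusted p = 4.83e-11. IGFBP5, a binding protein of insulin-like growth factors, gave a larger difference: it had 4.19, 4.92 and 4.47 CPM in control and 1.8, 2.23 and 2.59 CPM with GO-203, and 3.33, 3.6 and 4.96 CPM with vehicle and 71.9, 98.7 and 98.5 CPM with DOX (log2 -1.02 ± 0.18 and 4.51 ± 0.16, difference -5.53 ± 0.23, adjusted p = 1.52e-11). JUP, the junction protein plakoglobin, and LRFN5, a synaptic adhesion protein, were also lower with GO-203 and higher on MYC silencing (log2 -0.98 and 2.81, and -1.14 and 2.47). ADAMTS1, a protease that cuts proteoglycans, rose furthest with GO-203 of the named genes of the reverse group. It rose from 7.47, 7.21 and 7.92 CPM to 22.5, 22.9 and 22.4 CPM with GO-203 (log2 1.58 ± 0.09, adjusted p = 2.59e-09) and fell from 11.4, 11.3 and 11.4 CPM to 7.67, 7.46 and 6.96 CPM with DOX (log2 -0.62 ± 0.09, adjusted p = 6.90e-06). No treated library overlapped an untreated one for ADAMTS1 in either setting. NUAK2, a kinase related to AMPK, IL12A, a cytokine subunit, and SLC16A6, a monocarboxylate transporter, also rose with GO-203 (log2 0.60, 0.56 and 0.36) and fell on MYC silencing (-2.42, -2.14 and -2.07). MYPN, a sarcomere protein, was called only narrowly with GO-203 (log2 0.28 ± 0.09, adjusted p = 0.0561) and fell by 3.52 on MYC silencing.

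The largest responses to MYC silencing without a call for GO-203 included adhesion and signalling genes. CADM1, a cell adhesion molecule, had 0.451, 0.373 and 0.389 CPM with vehicle and 36.6, 31.2 and 34.7 CPM with DOX (log2 6.4 ± 0.20, adjusted p = 5.72e-14), and 1.04, 1.64 and 1.52 CPM in control and 2.11, 1.24 and 2.09 CPM with GO-203 (log2 0.39 ± 0.19, adjusted p = 0.241). The DOX libraries stood far above vehicle, and control and GO-203 overlapped. MGP, an inhibitor of matrix calcification, ANKRD35, an ankyrin-repeat gene, ELFN1, a synaptic adhesion protein, and IFI6, an interferon-induced gene, rose by 5.96, 5.79, 5.05 and 5.24 on the log2 scale, each from below 1 CPM. Downwards, PDE4A, a phosphodiesterase of cyclic AMP, went from 31.7, 30.2 and 28.5 CPM to 0.926, 1.74 and 1.56 CPM with DOX (log2 -4.4 ± 0.15, adjusted p = 2.01e-13), with 21.1, 17.9 and 17.8 CPM in control and 18.5, 18.5 and 16.6 CPM with GO-203 (adjusted p = 0.755). SEMA7A, a membrane semaphorin, fell by 4.85, and GAL, the neuropeptide galanin, fell by 4.15. P2RX5, an ATP-gated channel, fell by 5.16, and 43.2% of its length overlaps another gene. SEMA7A had 0.149 ± 0.165 CPM (SD, n = 3) in control and 9.28 ± 1.12 CPM with vehicle, so it was close to 0 before the peptide was given. None of these 9 genes was called with GO-203. For the genes changed by MYC silencing alone, DOX in the tet-MUC1shRNA line called 29% of the higher ones higher and 38.5% of the lower ones lower, while 36.6% of the higher ones were called lower and 21.6% of the lower ones higher, beside 23.6% of all genes called higher and 27.9% called lower.

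More heat shock and mitochondrial chaperone genes fell than rose in both settings, and the remaining lists were mixed. These genes fell in 12 of 23 cases with GO-203 and 18 on MYC silencing, and 11 falls were shared, beside 8.03% and 27.1% lower over all tested genes. Rises numbered 1 with GO-203 and 3 on MYC silencing, beside 6.82% and 30.4%. The number lower with GO-203 was 6 (without 3D control replicate 1) to 18 (without tet-MYCshRNA DOX replicate 1), as single libraries were left out. HSPH1, a large chaperone of the HSP110 family, fell by closely matched amounts, from 486, 476 and 481 CPM to 320.1, 315 and 318 CPM with GO-203 and from 709, 691 and 681 CPM to 490.1, 473 and 483 CPM with DOX (log2 -0.60 ± 0.05 and -0.53 ± 0.05, interval of the difference -0.21 to 0.06). Its treated libraries were all below the untreated ones. BCL2L1, which encodes the survival protein BCL-XL, also fell by similar amounts (log2 -0.63 ± 0.08 and -0.54 ± 0.08, interval -0.32 to 0.15), whereas BCL2 rose with GO-203 alone (log2 0.53 ± 0.14, adjusted p = 0.0183, against -0.17 ± 0.14). IL6, an inflammatory cytokine, rose by similar amounts, from 8.13, 7.43 and 7.69 CPM to 15.5, 16.4 and 16.6 CPM and from 3.01, 3 and 3.86 CPM to 6.86, 7.09 and 6.72 CPM (log2 1.06 ± 0.11 and 1.07 ± 0.11). CXCL8, a neutrophil chemokine, fell in both and much further on MYC silencing (log2 -0.80 and -3.3). SLC7A11, the cystine carrier, was the leading shared rise of both the ATF4 and the NRF2 lists (log2 0.69 and 1.62). The counts that follow stand beside 6.82% higher and 8.03% lower with GO-203 and 30.4% higher and 27.1% lower on MYC silencing over all tested genes. Endoplasmic reticulum chaperone genes had 1 of 23 genes higher and 0 lower with GO-203 and 12 higher and 7 lower on MYC silencing. Cholesterol genes had 1 of 26 genes higher and 3 lower with GO-203 and 5 higher and 15 lower on MYC silencing. Fatty acid genes had 4 of 18 genes higher and 0 lower with GO-203 and 10 higher and 6 lower on MYC silencing. The cholesterol counts with GO-203 lay near the shares over all genes. EMT genes had 4 of 20 genes higher and 2 lower with GO-203 and 12 higher and 4 lower on MYC silencing. Among them TWIST1, an EMT transcription factor, rose on MYC silencing alone (log2 0.83, against 0.09). Stem cell and chromatin genes had 1 of 24 genes higher and 4 lower with GO-203 and 11 higher and 8 lower on MYC silencing. CD24, a surface glycoprotein, was the 1 shared rise (0.71 and 1.59) and NOTCH1 and NOTCH3, related receptors, split on MYC silencing (-1.48 and 2.89). YAP and TGF-beta target genes had 10 of 26 genes higher and 4 lower with GO-203 and 13 higher and 9 lower on MYC silencing. SKIL, a repressor in the TGF-beta pathway, led the shared rises (0.66 and 1.32).

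Lists whose members moved in several directions were also counted, beside the same shares over all tested genes (6.82% and 8.03% with GO-203, 30.4% and 27.1% on MYC silencing). Citric acid cycle and pyruvate entry genes had 4 of 30 genes higher and 6 lower with GO-203 and 7 higher and 18 lower on MYC silencing. DLAT, a subunit of pyruvate dehydrogenase, fell in both (log2 -0.19 ± 0.06 and -1.21 ± 0.06) with the largest positive difference of the list. ATF4 stress genes had 5 of 24 genes higher and 2 lower with GO-203 and 14 higher and 6 lower on MYC silencing. NRF2 and antioxidant genes had 2 of 28 genes higher and 7 lower with GO-203 and 13 higher and 6 lower on MYC silencing. OSGIN1, an oxidative stress-induced growth inhibitor, moved in opposite directions (-0.64 and 1.25). NF-kB feedback genes and cytokines had 4 of 28 genes higher and 5 lower with GO-203 and 11 higher and 7 lower on MYC silencing. BCL2 family genes had 1 of 13 genes higher and 4 lower with GO-203 and 4 higher and 6 lower on MYC silencing. Several of these counts lay near the shares over all genes. They included the NF-kB counts on MYC silencing, the ATF4 falls and BCL2 family rises in both settings, and the NRF2 rises with GO-203. Contractile actin genes had 4 of 16 genes higher and 0 lower with GO-203 and 9 higher and 4 lower on MYC silencing. Metallothionein genes had 1 of 9 genes higher and 0 lower with GO-203 and 6 higher and 1 lower on MYC silencing. With single libraries left out, the number lower with GO-203 was 1 to 8 for the citric acid cycle list, 1 to 5 for cholesterol, 0 to 3 for fatty acids, 2 to 7 for stem cell factors, 2 to 5 for the BCL2 family, 0 to 3 for the MYC network and 0 to 3 for contractile actin genes. The lowest of these came without 3D control replicate 1, or for stem cell factors GO-203 replicate 2, and the highest without tet-MYCshRNA DOX replicate 1, or for the BCL2 family and MYC network vehicle replicate 3. The number higher with GO-203 was as low as 2 for ATF4 genes (without GO-203 replicate 3) and citric acid cycle genes (without 3D control replicate 2). It was as low as 1 for NRF2 genes and contractile actin genes (both without 3D control replicate 1). The number higher on MYC silencing was as low as 7 for NF-kB genes and 2 for the BCL2 family (both without vehicle replicate 2) and 3 for cholesterol genes (without vehicle replicate 3), and the number lower was as low as 2 for EMT genes (without DOX replicate 3). The MYC network itself, MYC and its partners and antagonists, had 0 of 13 genes higher and 2 lower with GO-203 and 4 higher and 5 lower on MYC silencing. Its rises on MYC silencing also lay near the share over all genes. MXD4, an antagonist of MYC that competes for MAX, rose on MYC silencing alone (log2 0.87 ± 0.13, adjusted p = 1.34e-05), with 18.8, 15.8 and 17.3 CPM in control and 13.1, 14.7 and 13 CPM with GO-203 (adjusted p = 0.105).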

How the data were processed

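The authors aligned stranded, paired-end, poly(A)-selected reads to GRCh38 with STAR and deposited raw counts per gene, 1 value per gene and library, from featureCounts. The submitters' processing notes also list CASAVA 1.8.2, STAR 2.7.3a and DESeq2. The annotation release, strand setting and handling of multi-mapping reads are not given in the sources used here, so genes that overlap others or have near-identical copies are uncertain. Genes blank in a block of libraries were read as 0. Of 42339 genes, 21076 passed edgeR's filterByExpr over the 12 libraries.

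In R 4.3.3 with edgeR 4.0.16, the 4 groups were fitted together after TMM scaling, and the quasi-likelihood test was applied to the GO-203 effect, the MYC silencing effect and their difference, with Benjamini-Hochberg adjustment over all tested genes. The threshold for a call was an adjusted p of 0.1. Effects are given with their SE and n = 3 libraries per group, differences with 95% intervals from the SE and the degrees of freedom, and levels as CPM scaled by the TMM factors. The labels name the 3 replicates of a group without saying more of their origin, so p-values measure the spread between these cultures. The biological coefficient of variation was 0.112. DOX in the tet-MUC1shRNA line was fitted over all 21 libraries.

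Named genes are MUC1, MYC, the genes the study names, and those with the largest effects in each class (mean normalized count of at least 100, no overlap of libraries) and in each list, with examples added. The members, lists and rules were chosen with earlier results of these data known. Gene positions are those of GENCODE release 44. On simulated data over 20548 genes, 74% of genes given a log2 change of 1 with GO-203 alone were placed in that class. Of those given 2, 99% were. Among unchanged genes, 0.0943% were called in the difference. That simulation changed far fewer genes than were called here, and none by MYC silencing alone. The last rate therefore does not measure false calls in these data. Alternatives were DESeq2 1.42.0, RLE factors, library size alone, TMM without mtDNA genes, filters on low counts, 6 or 21 libraries per fit, a replicate block, other thresholds and leaving out each library. The 3 libraries of 2D cells entered only the fits over all 21 libraries. Some named genes are not reported here.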

Additional observations from a re-analysis of the deposited data

How the results depend on the processing

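The counts of called genes kept within 1.5 times their value under DESeq2 (3571 with GO-203, 12171 on MYC silencing and 9126 in the difference), RLE factors, library size alone, TMM without mtDNA genes and all 21 libraries in a single fit, and no scaling moved the share of higher calls by more than 10 percentage points. With at least 10 counts in every library, the large calls were 36 with GO-203, 1114 on MYC silencing and 910 in the difference, since low-count genes were left out. At an adjusted p below 0.05, GO-203 had 115 large calls and 263 genes were opposite. At a fold change above 1.5, the large calls were 963, 7647 and 5793. Same-numbered control and GO-203 libraries deviated together with correlations of 0.06 to 0.59 (mean 0.34, against -0.17 for different numbers), over 9091 genes. For same-numbered vehicle and DOX libraries the correlations were -0.67 to 0.04 (mean -0.34, against 0.18). With 3 libraries per group, these values cannot decide whether the numbers pair the control and GO-203 samples. The main fit did not pair them. With the replicate block, GO-203 called 2170 genes (122 large), 272 genes were opposite and 474 closely matched.

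Omitting single libraries gave 1865 to 4386 calls with GO-203 (136 to 229 large), 11036 to 12219 on MYC silencing (2340 to 2527) and 7997 to 9590 in the difference (1675 to 1930). It gave 594 to 1127 shared higher, 769 to 1662 shared lower, 229 to 723 opposite, 195 to 497 GO-203-only, 5953 to 6741 MYC-only and 406 to 1043 closely matched genes. For GO-203 calls and the shared, opposite, GO-203-only and matched genes the lowest counts came without 3D control replicate 1 and, shared higher genes apart, the highest without tet-MYCshRNA DOX replicate 1. Shared higher genes also fell to 700 without control replicate 2, 643 without GO-203 replicate 1 and 625 without GO-203 replicate 3, opposite genes to 273 and 277 without GO-203 replicates 1 and 2, and matched genes to 473 and 467 without control replicate 3 and GO-203 replicate 1. Over single-library omissions, the value for MT1A, MYC silencing effect, ran from -3.437 to 0.387, reversed without vehicle replicate 2 (adjusted p = 0.678), and that for RSAD2, difference of the effects, from -3.623 to 0.538, reversed without 3D control replicate 3 (adjusted p = 0.683). The cause was not tested. Counted once per effect and alternative, the other values of named genes stayed on their side of the threshold in 14364 cases. They lost the call in 254 cases and gained it in 133. Direction was not checked for values called in neither fit. The alternative threshold for large calls could not move a call. How far the spread between cultures and how far counting error limited the calls was not tested, and counting error weighs more in genes with low counts.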
